A study of Mus musculus with 2 samples.

Results

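The red cell membrane rests on a protein net that lines its inner face, and 9 genes of that net are described here: Sptb, Ank1, Slc4a1, Epb41, Epb42, Dmtn, Add2, Tmod1 and Mpp1. They were chosen by name, with earlier results of these data known. All their non-control probes were taken, with each probe assigned to a gene through its transcript accession. This gave 13 probes in 22 spots for 9 of the 20659 genes named on the array. Blood cells of E13.5 mouse fetal liver carrying SoNar, a protein sensor whose fluorescence reports the balance of NADH and NAD+ in the cytosol, had been sorted on the F405/F488 ratio. The SoNar-high sample is labelled strain C57BL/6 and the SoNar-low sample C57BL, and the labels give no further genotype, no treatment besides sorting and no number of animals or sorts. Total RNA of each population, 1.0 µg, was labelled with Cy3 and hybridised to its own Agilent array, and both arrays carry the same scan date. With 2 arrays, 1 per population, there is no replicate and no test, and every difference below is only as precise as this number of arrays allows.

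In the mature red cell, spectrin tetramers form a hexagonal lattice that is fastened to the lipid bilayer at 2 kinds of site. At the ankyrin complex, ankyrin (Ank1) joins beta spectrin (Sptb) to band 3 (Slc4a1), the chloride and bicarbonate exchanger of the red cell, and protein 4.2 (Epb42) steadies that link. At the junctional complex, spectrin ends meet a short actin filament with the help of protein 4.1 (Epb41), dematin (Dmtn), adducin (Add2 is its beta chain), tropomodulin (Tmod1) and the scaffold p55 (Mpp1). The proteins are made and assembled during terminal erythroblast maturation, which at this stage takes place in the fetal liver, and loss of ankyrin, spectrin, band 3 or protein 4.2 causes fragile, rounded red cells. The comparison asks whether transcripts of the net differ between cells with a high and a low sensor ratio, and whether the ankyrin complex differs from the junctional complex in that respect.

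Of the 9 members, 7 could be measured on both arrays, and all 7 had higher scaled signals in SoNar-high cells. Of these 7 members, 5 were at least 2-fold higher, and none was lower. The share of all 10223 measured genes that was at least 2-fold higher was 5.28%, the share at least 2-fold lower was 4.44%, and 44.2% had a difference above 0. At a 3-fold threshold 2 of 7 members (Dmtn and Epb42, with Slc4a1 just under it at 2.94-fold) were higher, against 1.43% of genes, and at 1.5-fold 6 of 7, against 13.8%. The median difference of the measured members was 1.17 (log2, SoNar-high minus SoNar-low), against -0.08 for all measured genes. A difference here is the log2 processed signal (background-subtracted spot brightness in scanner units) of SoNar-high minus that of SoNar-low, after each array was divided by the 75th percentile of its spots, which was 186.5 units for SoNar-high and 222.2 units for SoNar-low. That scaling adds 0.25 to every difference, and a gene with several measured probes stands at its brightest. Measured means that the scanner marked the probe as well above background on both arrays. In bulk RNA, fewer cells of a type and less RNA per cell cannot be told apart.

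The plot of signals by probe shows where each member could be read. Of the 13 probes, 8 were measured on both arrays, 1 passed on the SoNar-high array alone, and 4 on neither array. For 7 of the 8 measured probes the signal was already higher on the SoNar-high array before scaling. The share of all measured probes that were higher before scaling was not computed, but the median difference of all measured genes was then -0.335. A total of 7 members are carried by a single probe, and Epb41 and Mpp1 by 3 probes each.

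**Figure D1:**
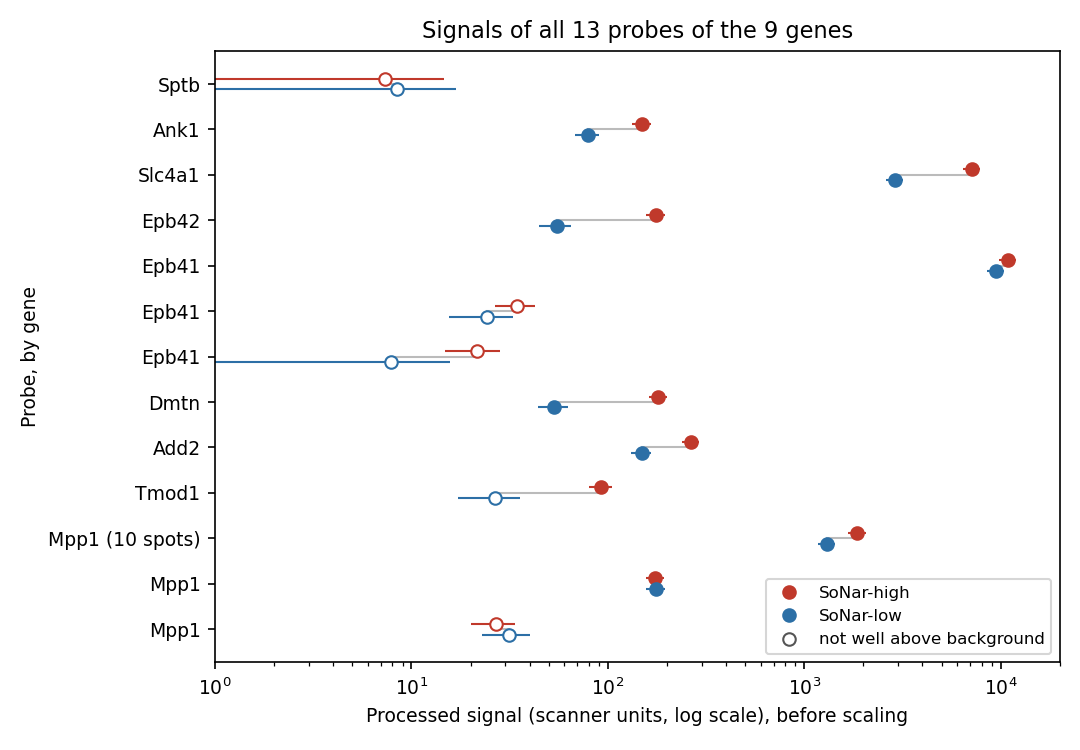
Processed signal (scanner units, log scale, before scaling) of each of the 13 probes on the SoNar-high (red) and SoNar-low (blue) array. Bars are the scanner's own error estimates and run off the left edge where the error is nearly as large as the signal; open circles are signals not well above background, which include both Sptb signals (7.29 and 8.42 units) and the SoNar-low signal of Tmod1 (26.5 units).

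Beta spectrin could not be read. Sptb has a single probe, which read 7.29 units for SoNar-high and 8.42 units for SoNar-low, neither well above background. No fold is therefore given for Sptb. The lowest signals that counted as well above background were 30.2 and 37.1 units on the respective arrays.

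Each of the 3 ankyrin complex members was at least 2-fold higher in SoNar-high cells. The Ank1 probe gave 149 units (scanner error 16.2) for SoNar-high and 79.3 units (scanner error 11.4) for SoNar-low cells, which is 2.24-fold after scaling (log2 1.17). Ank1 encodes the adaptor that holds the lattice to band 3. Slc4a1 was far above background, at 7107 units (scanner error 711) in SoNar-high and 2884 units (scanner error 288) in SoNar-low cells, a 2.94-fold difference (log2 1.55). Epb42, the pseudoenzyme that binds both band 3 and ankyrin, gave 176 units (scanner error 18.8) and 54.9 units (scanner error 10.4). It was 3.81-fold higher (log2 1.93). Adding the relative scanner errors of both arrays in quadrature gave errors of the log2 difference of 0.26 for Ank1, 0.20 for Slc4a1 and 0.31 for Epb42. These errors describe the reading of a spot and not the spread between animals, sorts or labelling reactions.

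The junctional complex spanned a wider range. Dmtn, an actin-bundling protein, had the largest difference of the members measured on both arrays. Its probe gave 181 units (scanner error 19.2) in SoNar-high and 53.3 units (scanner error 9.36) in SoNar-low cells, 4.05-fold apart (log2 2.02, propagated scanner error 0.30). Add2, which caps the fast-growing end of actin filaments and recruits spectrin to it, gave 265 units (scanner error 27.2) and 149 units (scanner error 17.2). This is 2.12-fold (log2 1.09, propagated scanner error 0.22), just past the 2-fold line. Tmod1, which caps the slow-growing end, passed the background criterion in SoNar-high cells alone, where it gave 92.4 units (scanner error 11.9) against 26.5 units (scanner error 9.27). Set against the lowest well-above-background signal of the SoNar-low array, Tmod1 had a bound of 2.97-fold higher in SoNar-high cells. That bound was 1.62-fold after the normexp correction described below. The criterion acts per spot, so the lowest passing signal is not a detection limit. On the SoNar-high array an Epb41 probe at 34.6 units failed it, although 30.2 units passed elsewhere. Of 1779 genes well above background on 1 array only, 11.4% had a bound of at least 2-fold higher in SoNar-high cells and 1.91% in the other direction.

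Epb41 and Mpp1 differed least. The bright Epb41 probe gave 10856 units (scanner error 1086) in SoNar-high and 9431 units (scanner error 943) in SoNar-low cells, 1.37-fold after scaling (log2 0.46, propagated scanner error 0.20). Without scaling between the arrays the Epb41 difference was 0.20. Protein 4.1 binds spectrin and actin together, and its gene is spliced into many forms that are also made outside the red cell lineage. The other Epb41 probes gave 34.6 and 24.2 units, and 21.6 and 7.83 units, on the SoNar-high and SoNar-low arrays in that order. None of these 4 signals was well above background, so the Epb41 value rests on 1 probe.

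Mpp1 is the member with repeated readings, because its brightest probe was printed in 10 spots on each array. On the SoNar-high array the 10 spots lay between 1752 and 2065 units with a median of 1854, and on the other array between 1069 and 1667 units with a median of 1288. Every SoNar-high spot was brighter than every SoNar-low spot, and the mean scaled difference was 0.76 (1.70-fold). The 10 paired spot differences ranged from 0.43 to 1.20 with an SD of 0.24. That SD was larger than the median of 0.15 over the 213 measured probes that have 10 spots, of which 30 had a larger one. The log2 SD over spots was 0.064 for SoNar-high and 0.20 for SoNar-low. A further Mpp1 probe, in a single spot, gave 174 units in SoNar-high and 176 units in SoNar-low cells, a scaled difference of 0.24 that lay below all 10 spot differences of the brighter probe. With Mpp1 taken as the mean over its measured probes the difference was 0.50, and without scaling it was 0.51, both below 1.5-fold. The remaining Mpp1 probe was not well above background on either array (26.8 and 31.5 units). All 3 Mpp1 probes carry the same transcript accession, and their positions in the transcript are not used here.

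**Figure D2:**
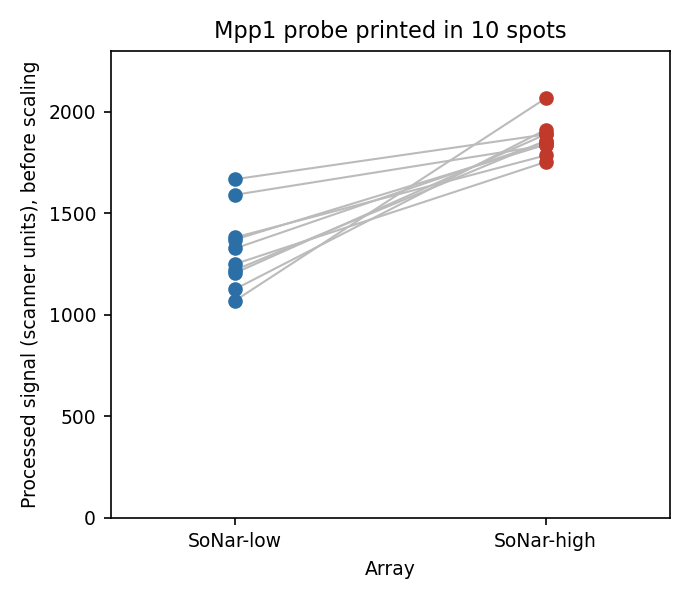
Processed signal (scanner units, before scaling) of the Mpp1 probe printed in 10 spots on the SoNar-low and the SoNar-high array, with lines joining spots at the same array position. The SoNar-low spots (1069 to 1667 units) spread more widely than the SoNar-high spots (1752 to 2065 units) and the groups of spots do not overlap; spots of an array are technical readings of 1 sample.

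Ankyrin complex members had the higher median, but the complexes were not separated. The ankyrin complex had a median difference of 1.55 over 3 members, ranging from 1.17 to 1.93. The junctional complex had a median of 0.92 over the 4 members measured on both arrays, ranging from 0.46 to 2.02. The medians thus differed by 0.63. With Tmod1 entered at its bound the junctional median was 1.09 and the gap 0.47, and leaving out Mpp1 in place of this gave the same values. Dmtn lay above all 3 ankyrin complex members, whereas Add2, Mpp1 and Epb41 lay below all of them. Without replicates this gap has no test, and it depends on which members of each complex are counted.

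**Figure D3:**
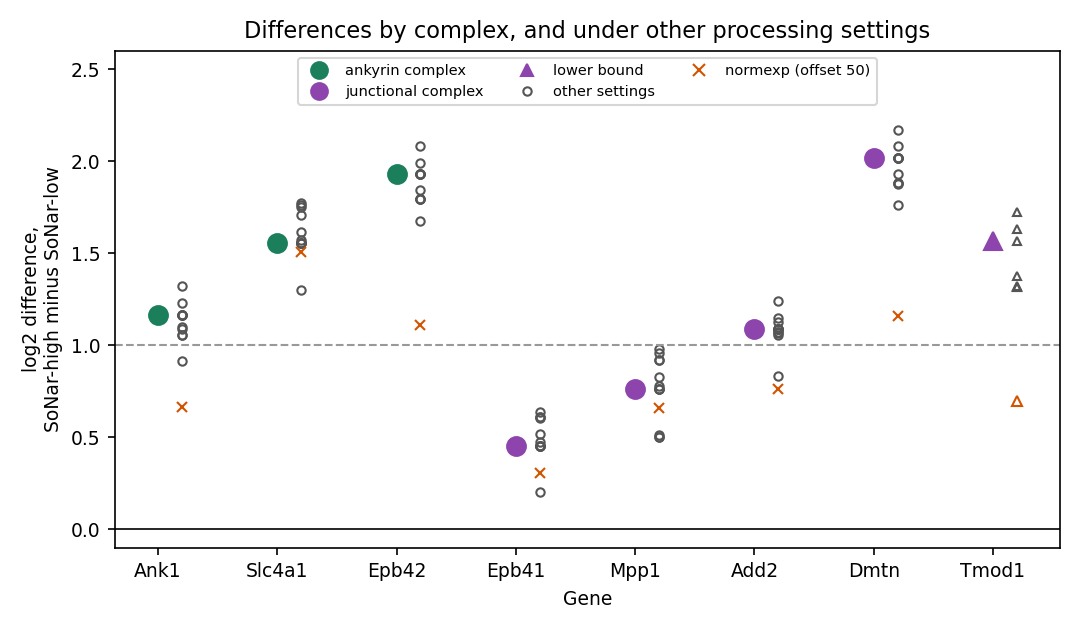
Log2 difference, SoNar-high minus SoNar-low, of the 8 members with a difference or a bound, grouped as ankyrin complex (green) and junctional complex (purple). Large symbols are the reported values (the triangle for Tmod1 is a lower bound), small symbols the values under other processing settings, with normexp background correction in orange and the dashed line at 2-fold; every symbol lies above 0, and under normexp the bound of Tmod1 (from 1.57 to 0.70), Dmtn (from 2.02 to 1.16) and Epb42 (from 1.93 to 1.11) move down most.

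Set against all genes, Dmtn and Epb42 lay far out in the distribution and Epb41 did not. Of 10223 measured genes, 0.665% had a difference at least as large as that of Dmtn, and 0.773% one as large as that of Epb42. The corresponding shares were 1.53% for Slc4a1, 3.67% for Ank1, 4.41% for Add2, 9.27% for Mpp1 and 18.7% for Epb41. Brightness moved with these values. The 4 members with a geometric mean signal under 300 units (Ank1, Epb42, Dmtn and Add2) were all at least 2-fold higher, against 7.32% of 4686 measured genes of such signal. Of the 3 members at 1000 units or more, only Slc4a1 was, against 3.17% of 2709 genes. No member fell between these limits, where 3.93% of 2828 genes were at least 2-fold higher. The part of brightness in the order of the members was not tested.

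**Figure D4:**
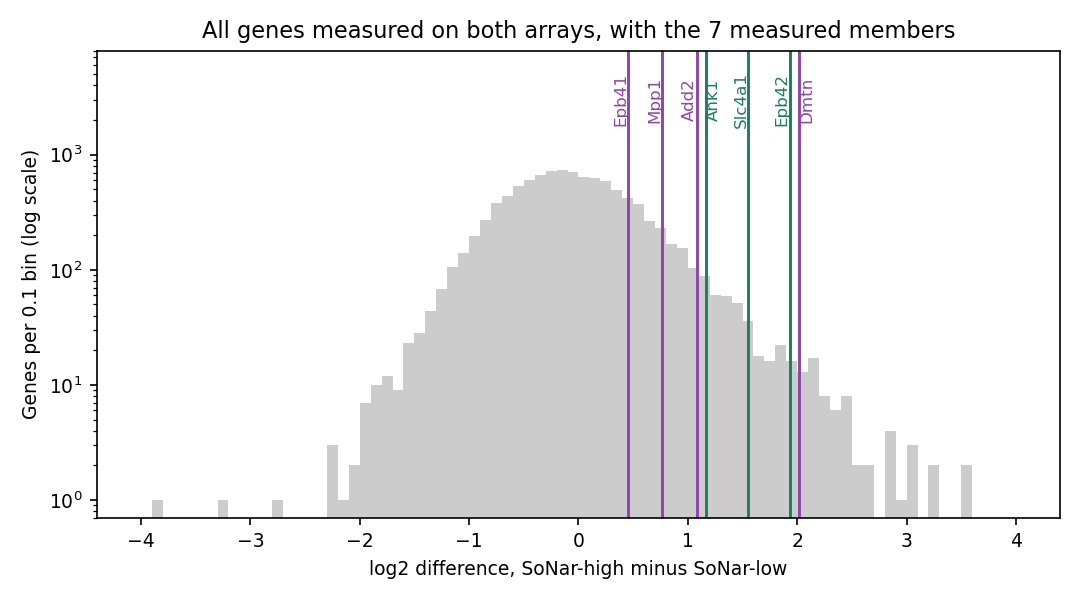
Histogram of the log2 difference, SoNar-high minus SoNar-low, of the 10223 genes measured on both arrays, in bins 0.1 wide with gene numbers on a log scale. Vertical lines mark the 7 measured members (green, ankyrin complex; purple, junctional complex), which run from 0.46 for Epb41 to 2.02 for Dmtn, all to the right of the median of all genes at -0.08.

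The differences of the dim members changed with the background correction. After normexp correction, which models the signal over local background and here adds an offset of 50 units, Slc4a1 (1.51) stood above Dmtn (1.16), Epb42 (1.11), Add2 (0.76), Ank1 (0.66), Mpp1 (0.66) and Epb41 (0.30). In that setting 3 of 7 members were at least 2-fold higher, against 2.46% of all measured genes, and the bound of Tmod1 was 1.62-fold. Without scaling between the arrays 3 of 7 members were at least 2-fold higher as well, namely Dmtn (1.76), Epb42 (1.68) and Slc4a1 (1.30), against 3.03% of all genes. In the values deposited by the authors as a log2 table, Slc4a1 stood at 13.04 for SoNar-high and 11.27 for SoNar-low, and the differences of Dmtn (1.88), Epb42 (1.79), Slc4a1 (1.76), Add2 (1.07) and Ank1 (1.06) again exceeded 2-fold.

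Promoter sequence is shown for the members that have a difference or a bound and also an entry in the RefSeq promoter table. Those with a large value can so be read beside those with a small one. The table held 6 of the 9 members, and Ank1, Slc4a1 and Dmtn had no entry. Each line gives the 250 bases before the start site, 5′ to 3′ on the strand of the gene (for Epb41, the first of 3 listed start sites), with the following motifs in capitals. They are the GATA motif of GATA1 (AGATAA or the variant AGATAG, as well as TGATAA or the variant TGATAG) and the pattern CCNCNCCC, each on either strand. Overlapping matches merge into a longer run. CCNCNCCC is a loose pattern for the CACCC-type motif bound by Kruppel-like factors such as KLF1. It also takes in GC-rich runs that lack the letters CACCC.
Epb42, GRCm38.p6 chr2:121036878-121037127 (-): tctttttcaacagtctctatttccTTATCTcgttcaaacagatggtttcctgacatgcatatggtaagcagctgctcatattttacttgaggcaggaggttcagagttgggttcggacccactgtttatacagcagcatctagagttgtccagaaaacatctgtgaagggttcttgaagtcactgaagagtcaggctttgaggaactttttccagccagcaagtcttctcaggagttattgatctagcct
Tmod1, GRCm38.p6 chr4:46038972-46039221 (+): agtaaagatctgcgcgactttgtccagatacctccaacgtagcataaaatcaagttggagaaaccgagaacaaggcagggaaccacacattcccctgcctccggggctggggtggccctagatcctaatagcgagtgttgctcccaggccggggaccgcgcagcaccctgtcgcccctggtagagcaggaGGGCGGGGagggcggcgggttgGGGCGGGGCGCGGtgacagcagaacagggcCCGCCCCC
Add2, GRCm38.p6 chr6:86028431-86028680 (+): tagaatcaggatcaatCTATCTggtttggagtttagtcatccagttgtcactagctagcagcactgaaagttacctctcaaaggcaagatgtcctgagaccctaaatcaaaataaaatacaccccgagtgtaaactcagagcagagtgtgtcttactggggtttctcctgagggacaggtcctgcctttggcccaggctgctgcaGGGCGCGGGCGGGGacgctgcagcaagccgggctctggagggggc
Epb41, GRCm38.p6 chr4:132075314-132075563 (-): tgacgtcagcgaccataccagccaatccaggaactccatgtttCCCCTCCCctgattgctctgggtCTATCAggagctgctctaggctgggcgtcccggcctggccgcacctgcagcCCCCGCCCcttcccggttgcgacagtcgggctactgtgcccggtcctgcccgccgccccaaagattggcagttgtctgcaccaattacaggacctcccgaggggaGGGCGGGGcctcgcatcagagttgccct
Mpp1, GRCm38.p6 chrX:75131017-75131266 (-): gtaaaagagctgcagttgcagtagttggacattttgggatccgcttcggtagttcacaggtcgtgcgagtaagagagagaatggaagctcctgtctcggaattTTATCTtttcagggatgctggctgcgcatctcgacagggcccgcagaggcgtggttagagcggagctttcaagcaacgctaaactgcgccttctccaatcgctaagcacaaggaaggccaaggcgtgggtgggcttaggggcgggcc

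The GATA motif occurred once each in the windows of Epb42, Add2, Epb41 and Mpp1, and in none of the Tmod1 and Sptb windows. Of 32851 promoter windows of that length in the table, 26.5% held at least 1 such motif. The CACCC-type motif was found 4 times in the Tmod1 window, 3 times in that of Epb41, 3 times in that of Sptb and 2 times in that of Add2, while Epb42 and Mpp1 had 0 matches. The CACCC-type pattern was present in 45.9% of all windows. Among its matches in the members, only CCACCCCC in the Sptb window holds the letters CACCC, and the others are runs such as GGGCGGGG or CCCCTCCC. The Tmod1, Add2 and Mpp1 windows hold those letters on either strand outside the matches. The share of G and C was 43.2% for Epb42, 53.2% for Add2, 55.2% for Mpp1, 64% for Tmod1, and 65.2% for Sptb and the Epb41 window shown. Its part in these counts was not tested. Epb42, at 3.81-fold, had the GATA motif alone. Tmod1, which has only a bound (2.97-fold, or 1.62-fold after normexp), had the CACCC-type motif alone. Add2, at 2.12-fold, had both motifs. Of the members with small differences, Mpp1 had the GATA motif alone and Epb41 both at the start site shown. The other Epb41 start sites lacked the GATA motif, and had 0 and 6 CACCC-type matches. A match is a run of letters and does not show that a factor binds there.

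Partners of the ankyrin complex were higher to different degrees. Of 4 partners, 3 were measured and had a difference above 0, and 1 of these, Icam4, was at least 2-fold higher. Icam4, the Landsteiner-Wiener adhesion molecule, gave 356 units in SoNar-high and 169 units in SoNar-low cells (2.50-fold). Rhd gave 1990 and 1492 units (log2 0.67), and Cd47, the signal against engulfment, 4724 and 4545 units (log2 0.31, with a further measured probe at -0.17). Rhag, which carries the Rh proteins to the membrane, passed the background criterion in SoNar-high cells alone (34.9 units), with a bound of 1.12-fold.

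Partners of the junctional complex mostly lay within 2-fold. Of the 13 measured among 14 listed, 2 passed 2-fold upward, none passed it downward, and the median was 0.07. Some values depended on the probe. Add1 (-0.03) and Actg1 (-0.22) had other measured probes up to 0.72 and 0.71, whereas Tpm1 (0.36) had a further one at 0.03. The higher ones were Stom (stomatin, a raft protein of the red cell membrane) at 1168 against 581 units (2.40-fold) and Kel, the Kell blood group protease, at 1365 against 707 units (2.30-fold). Kel was just under 2-fold after normexp (0.96) and without scaling (0.95). Xk, the partner to which the Kell protein is bound, gave 60.2 units in SoNar-high and 105.6 units in SoNar-low cells (log2 -0.56). Actb, the actin of the short filaments, gave a difference of 0.07 that turned negative without scaling (-0.18). The list also holds actin, tropomyosin and adducin genes that nearly all cells express. Its median was -0.18 without scaling and 0.16 after normexp.

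Relatives of the members that mainly serve other cell types lay on both sides of 0, with 7 of 12 above it. Of 28 such genes, 12 were measured. Upward changes of 2-fold or more were seen for 3 and downward ones for none, and the median was 0.37. The count was 1 upward and 2 downward after normexp, 1 upward and 3 downward without scaling, and 4 upward and 1 downward after loess. Epb41l3, a protein 4.1 relative, gave 282 units in SoNar-high and 63.1 units in SoNar-low cells (5.33-fold), a larger difference than any measured member. Tgm2 (2.23-fold) and Tgm1 (2.16-fold), transglutaminases of the family to which protein 4.2 belongs, were the others, and Epb41l3 alone stayed past 2-fold under both of those settings. Sptbn1, the beta spectrin of most other cells, gave 4652 and 6764 units (log2 -0.29). A further 6 relatives passed the background criterion for SoNar-high alone, 1 for SoNar-low alone and 8 for neither, and Epb41l1 had no named probe.

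Regulators of erythroid genes showed a spread around 0. Of 11 measured, Klf1 alone was at least 2-fold higher (182 against 87.7 units, 2.47-fold), and none was at least 2-fold lower. Gata1 gave 1648 units in SoNar-high and 1505 units in SoNar-low cells (log2 0.38, or 0.13 without scaling). Gata2 gave 381 and 802 units (log2 -0.82, or -1.07 without scaling). Nfe2 had a difference of 0.98 and the erythropoietin receptor gene Epor 0.95, close to the 2-fold line. The count of regulators past that line depended on the setting, with 0 after normexp (Klf1 at 0.93) and 3 after loess, where Nfe2 (1.20) and Epor (1.14) passed as well. Myb, which is switched off as erythroblasts mature, gave 3608 units in SoNar-high and 8056 units in SoNar-low cells (log2 -0.91, and past 2-fold lower after normexp at -1.14 and without scaling at -1.16). The median of the list was 0.17, or -0.09 without scaling.

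Markers of several cell types differed between the arrays alongside the skeleton genes. All 7 erythroblast markers were measured on both arrays, and 3 of them were at least 2-fold higher in SoNar-high cells, with a median of 0.95 and summed signals of 54585 units for SoNar-high and 44085 units for SoNar-low. Among those 7, Ermap (1.76, with other measured probes down to 0.49), Klf1 (1.31) and Alas2 (1.24), which starts heme synthesis in red cells, were the highest, the bright globin gene Hba-a1 had 0.91, and Hemgn alone was negative (-0.43). The erythroblast count was 2 after normexp and without scaling, and 5 with the 75th percentile taken over detected probes. Of 9 measured macrophage markers 8 were at least 2-fold higher (median 2.93, summed signals 18999 and 8595 units), as were all 6 measured hepatoblast markers (median 1.95, 14563 and 5640 units) and 4 of 5 measured endothelial markers (median 2.56, 3747 and 1011 units). The largest differences were those of Marco (3.59), C1qa (3.54) and C1qc (3.29) for macrophages, Fgg (2.44), Serpina1a (2.09) and Fgb (2.04) for hepatoblasts, and Cdh5 (3.07), Stab2 (2.64) and Lyve1 (2.56) for endothelial cells. The brightest macrophage marker, Csf1r, had 0.18 (-0.08 without scaling, and from -0.09 to 1.02 over its measured probes), and the brightest hepatoblast marker, Afp, 1.42. Among the endothelial markers, Pecam1 had 0.01 (-0.24 without scaling) and Kdr 1.98, with a further measured Kdr probe at 0.74. Of 7 measured stem and progenitor markers 3 were at least 2-fold lower (median -0.93, 5484 and 11692 units), and of 8 lymphoid markers 6 were (median -1.57, 4270 and 19213 units). Angpt1 (-1.90), Mycn (-1.25) and Cd34 (-1.02, with a further measured probe at -0.39) led the former list, and Gzma (-3.90), Klrd1 (-3.24) and Vpreb1 (-1.90) the latter. The stem and progenitor count was 5 without scaling and 2 after normexp, and the lymphoid count was 7 and 6. None of the 5 megakaryocyte markers reached 2-fold (median 0.39, 2929 and 2814 units), with Vwf at 0.93, Ppbp at 0.59, Gp9 at 0.39 and the brightest, Pf4, at 0.06. The pan-leukocyte marker Ptprc gave 1079 and 923 units. The part of these cell types in the differences of the skeleton genes was not tested. Defining markers not well above background on either array were Apoa1 for hepatoblasts, Emcn for endothelial cells and Mecom for stem cells. Timd4, Ttr and Tek passed the background criterion for SoNar-high alone.

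**Figure D5:**
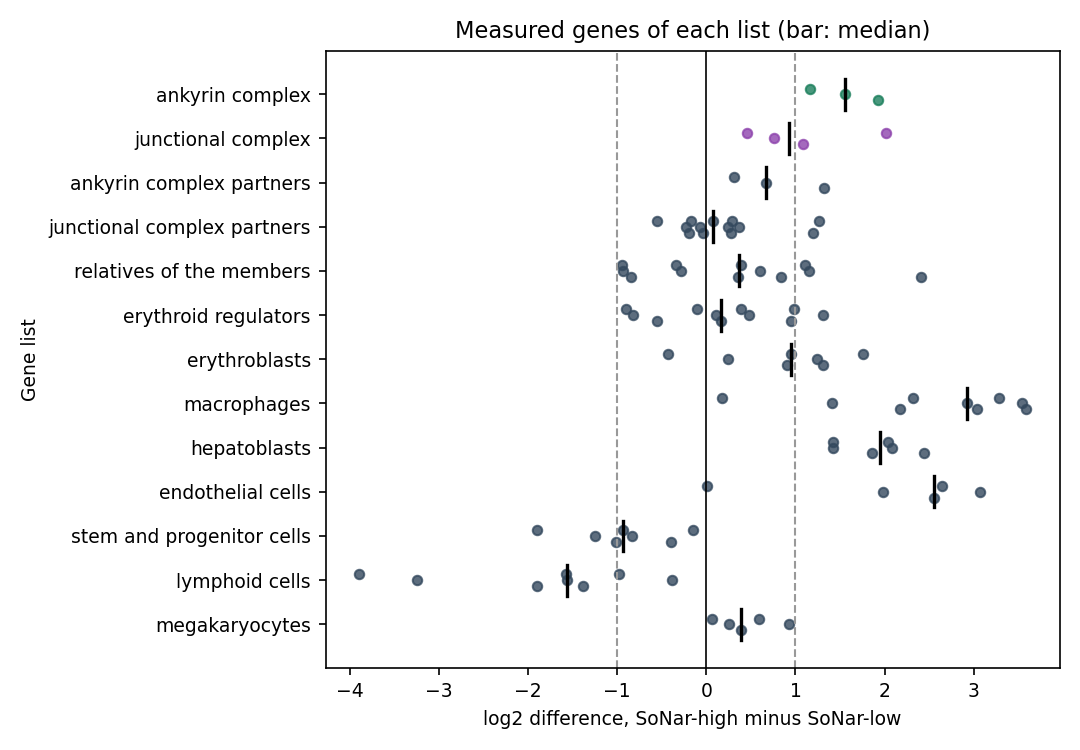
Log2 difference, SoNar-high minus SoNar-low, of the measured genes of each list, with 1 point per gene, a black bar at the list median and dashed lines at 2-fold. The measured members of the ankyrin complex (median 1.55) and the junctional complex (median 0.92) lie to the right of 0, as do the erythroblast (0.95), macrophage (2.93), hepatoblast (1.95) and endothelial (2.56) medians, while the stem and progenitor (-0.93) and lymphoid (-1.57) medians lie to the left.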

How the data were processed

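The 2 Agilent arrays, SoNar-high and SoNar-low, were read as scanner files. Spot intensities were deposited by the authors as Feature Extraction output with background subtracted, per the file headers, which name version 11.0.1.1 where the submitters' processing notes name 9.1. The flags for well above background, saturation and outliers come from the same files. The log2 table deposited by the authors has an unstated normalization. Its columns share a median of 4.80, correlate with their own arrays at 1.00 over 15975 probes (0.97 for the differences, which fixes the direction), and it served as an alternative.

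Control spots and outlier spots (225 on SoNar-high, 135 on SoNar-low) were left out, the 75th percentile of 43020 spots was subtracted on the log2 scale, and spots of a probe were averaged. The scanner marked 49.4% of SoNar-high and 42.4% of SoNar-low spots as well above background, and none as saturated. A probe was measured if most of its spots passed on each array and none was saturated. Probes were named by accession in a RefSeq table (GRCm38.p6, used for names because the array design refers to mm9), with 27234 of 39429 probes matched to 1 gene. For a bound, the dim array's value is replaced by the lowest value there that passed, where that is higher. limma 3.58.1 gave loess and normexp, the latter on median spot and background signals because the files hold no mean spot signal. The counting rule was tested on simulated data. Named genes are all members and, in each list, the 3 largest differences and the brightest gene. Rhag, Hemgn, Epb41l1, Add1, Actg1, Tpm1, Gata1, Gata2, Pecam1, Kdr and markers not measured on both arrays were named after their values were seen. Some listed genes were left out of the lists and are not reported here. The members, lists and rule were chosen with earlier results of these data known. Alternatives were other scalings, background corrections, filters, probe rules and thresholds, of which a shift by negative controls and no scaling were chosen after seeing the data. A log2 difference or median counted as moved past 0.15, the median SD of a spot difference, a limit that does not apply to the counts.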

Additional observations from a re-analysis of the deposited data

How the results depend on the processing

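Every measured member kept a positive difference under each alternative that gave it a value. Normexp moved the ankyrin median to 1.11, the junctional median to 0.71, their gap to 0.40, the median of the members to 0.76, the members at least 2-fold higher to 3, and all genes to 251 higher and 257 lower. Without scaling the ankyrin, junctional and member medians were 1.30, 0.67 and 0.91, with 3 members, and 310 genes higher and 1094 lower, and moved the median of all genes to -0.34. With the 75th percentile taken over detected probes the same 3 medians were 1.71, 1.08 and 1.32, with 247 genes lower and 782 higher. The ankyrin median was 1.75 after quantile normalization, 1.77 after loess and 1.76 in the deposited table. A minimum signal of 100 left 4 measured members, 2 of them at least 2-fold higher, and a member median of 0.92. In that setting 329 of 7800 genes (4.22%) were at least 2-fold higher. Slc4a1 was then the only member left in the ankyrin complex, and its value stood 0.79 above a junctional median of 0.76. With dim probes kept or Mpp1 left out the junctional median was 1.09 and the gap 0.47, and with dim probes kept 2476 genes were higher. At 3-fold, 2 members, 146 genes higher and 48 lower were counted, and at 1.5-fold 6 members, 1408 higher and 1809 lower. Thresholds, fewer genes and fewer members account for their own changes by construction. Leaving out the scaling takes 0.25 from every difference by construction. The percentile over detected probes raises all differences by a smaller constant, which moved the median of all genes from -0.08 to 0.07. The normexp offset of 50 units shrinks folds by construction, more so for dim probes, but its share in the normexp changes was not tested. For the other settings the cause was not tested. Adding Sptb to a complex was not run, because Sptb was not measured. No paired analysis was possible because each group has 1 array, and no replicate could be left out. Signal over background limits Ank1, Epb42, Dmtn, Tmod1 and Sptb.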
